A study of Mus musculus with 31 samples.

Results

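The proteasome is the large protease that degrades proteins tagged with ubiquitin, and the genes described here encode its subunits, its assembly chaperones and its activators. Members were the mouse genes whose annotated symbol is Psma, Psmb, Psmc, Psmd, Psme or Psmg followed only by digits, with 1 probe per gene. 39 of the 8974 named genes measured met this rule. Names were at hand only for probes among the 12980 with deposited processed values, each detected on at least 21 of the 31 arrays. Beyond that, only the choice of the brightest probe used expression values. Another 8 genes of these families, namely Psma1, Psma6, Psma8, Psmb8, Psmb11, Psmc6, Psmd3 and Psmg4, had no named probe among these and are not analysed here.

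The 20S core is a barrel of stacked rings in which the outer alpha rings gate the entrance and the inner beta rings hold the protein-cutting sites. The 19S cap binds ubiquitin-tagged proteins, removes the ubiquitin and feeds the chain through a ring of ATPases into the barrel. In neurons this turnover includes proteins of the synapse, and cells raise proteasome genes as a set when the protease is inhibited, through the transcription factor Nfe2l1.

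The data are 31 Illumina bead arrays, each of 1 colour, of total RNA from the bed nucleus of the stria terminalis and preoptic area, which differ between the sexes in rodents. The mice were of the outbred MF1 stock and 152 days old. The groups were 8 XXY males, 8 XX females, 7 XX males and 8 XY males. The sample names of the 3 male groups carry Sry, the testis-determining gene, and those of the XX females do not. They belong to the Sex Chromosome Trisomy model of Klinefelter syndrome, in which Sry is carried apart from the Y chromosome. Whether the animals had gonadal surgery or hormones, and whether tissue was pooled, is not given in the sources used here. The labels call the arrays biological replicates without naming the animals, so p-values measure the spread between these arrays.

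Levels are log2 signals after background correction and quantile normalization, and differences are fitted log2 differences with group and batch as terms, tested with limma and adjusted over 11713 features. A log2 difference of 1 is a doubling. Signals of different probes cannot be set against each other, so no gene is ranked above another by level. In bulk tissue, fewer cells of a type and less RNA per cell cannot be told apart.

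Between 12939 and 14397 of 25697 probes were detected per array. Xist, expressed from the inactive X, was detected on 8 of 8 XXY male, 8 of 8 XX female, 7 of 7 XX male and 0 of 8 XY male arrays. The probe of the Y-linked gene Uty was detected on 8 of 8 XXY male, 7 of 8 XX female, 6 of 7 XX male and 7 of 8 XY male arrays at overlapping levels, so it did not separate the groups by Y chromosome. Of the markers listed for the tissue, 12 of 15 for the bed nucleus and preoptic area, among them Gal, Avp and Trh, and 8 of 12 for neurons had a measured probe. The descriptions name 2 batches, batch 2 with 11 arrays and batch 1 with 20, and every group lies in both. The array XX male 6 is described as batch 1, but on the first principal component it lay at 27.7, within the 20.5 to 31.6 of batch 2 and apart from the -23.3 to -10.9 of the other batch 1 arrays. The offsets of its processed values from its scanner signals had an r of 0.89 with those of batch 2 and -0.84 with those of batch 1. For the other batch 1 arrays the r with batch 2 was at most -0.82. In the other groups the array numbered 6 is described as batch 2. The main fit keeps the described batch, and the main results that rest on XX male 6 are given with and without it.

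Cells raise proteasome genes through antioxidant response elements bound by Nfe2l1, so the 250 bases before the start of each gene were searched on both strands for the core TGACNNNGC. A RefSeq promoter window of GRCm38.p6 was found for 33 of the 39 members, some with more than 1 start, 35 windows in all. 4 windows, or 11.4%, held the core, against 10.2% of all 32851 windows. The matches are shown with up to 20 bases on each side, with the core in capitals. For Psmd12 the core reads on the opposite strand.
Psmb5, chr14:54618014-54618062, minus strand: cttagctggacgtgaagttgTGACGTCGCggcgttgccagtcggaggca
Psmb6, chr11:70525328-70525356, plus strand: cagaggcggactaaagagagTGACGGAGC
Psmd9, chr5:123228139-123228187, plus strand: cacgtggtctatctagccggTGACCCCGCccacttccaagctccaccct
Psmd12, chr11:107479278-107479309, plus strand: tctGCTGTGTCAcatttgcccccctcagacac
The core begins 9 bases before the start in Psmb6, 47 in Psmb5, 31 in Psmd9 and 247 in Psmd12, so the flanks of Psmb6 and Psmd12 stop at the window's edge. The GC box GGGCGG was in 57.1% of member windows and 32.7% of all windows, and the pair of half-sites for the factor Nrf1 (GCGC and again GCGC after 2 bases), a different protein from Nfe2l1, was in 17.1% and 4.98%. CCAAT was in 31.4% and 33.8%, the E-box CACGTG in 11.4% and 6.02%, TATAAA in 8.57% and 12.4%, and the interferon-stimulated core (GAAA and again GAAA after 2 bases) in 8.57% and 2.98%. The GC box and the Nrf1 pair can overlap other GC-rich motifs, and a match describes letters and is no evidence of binding.

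XXY males set against XY males show whether an added X chromosome goes with other levels of the proteasome genes. 0 of the 39 members passed an adjusted p of 0.05, where 0.0512% of all features did, and 0 members had an unadjusted p under 0.05, against 2.74% of features. Without the array XX male 6 that second count was 1, the gene being Psmd4. The fitted differences of the members had a median of 0.00, with 21 above 0 and 18 below. Leaving out Psmd8, they ran between -0.21 and 0.18. The smallest p belonged to Psmd4, the 19S subunit that binds ubiquitin chains. Its signal had a lowest, median and highest value of 13.16, 13.24 and 13.46 in XXY males, against 13.07, 13.17 and 13.28 in XY males. The groups overlapped, and the difference was 0.09 (SE 0.05, limma adjusted p = 1).

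XX females were also set against XY males, a comparison that changes sex chromosomes and gonads together. 0 members passed the adjusted threshold, where 0.0683% of features did, and 1 had an unadjusted p under 0.05, against 4.23% of features. Without XX male 6 it was 2, with Psma7 added. The gene in both fits was Psme4, which encodes PA200, a nuclear activator that caps the 20S barrel. Its signals were 8.89, 9.31 and 9.74 in XX females and 9.26, 9.59 and 9.91 in XY males, as lowest, median and highest. The difference was -0.26 (SE 0.12, limma adjusted p = 1). Within batches it was -0.50 in batch 2 and -0.11 in batch 1. Psme4 was also the second smallest p between XXY and XY males, at -0.21 (SE 0.12, limma adjusted p = 1), a comparison that shares the XY arrays.

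XX males against XY males compares animals of 1 gonadal sex with different sex chromosomes. Again 0 members passed, where 0.0598% of features did, and 2 had an unadjusted p under 0.05, against 5.61% of features. Psmd4 had signals of 13.21, 13.29 and 13.37 in XX males, against 13.07, 13.17 and 13.28 in XY males, a difference of 0.12 (SE 0.05, limma adjusted p = 0.874). It was 0.13 within batch 2 and 0.13 within batch 1. Psma4, a subunit of the alpha ring, was the other gene, with 12.38, 12.79 and 12.97 in XX males and 12.72, 12.93 and 13.09 in XY males. Its difference of -0.14 (SE 0.07, limma adjusted p = 0.874) became -0.07 (SE 0.05) without the array XX male 6, which holds the lowest of those values, and the count under an unadjusted 0.05 was then 1.

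The remaining comparisons set XXY males against XX males, XXY males against XX females, and XX females against XX males. In each, 0 members passed the adjusted threshold, where 0.0256%, 0.0512% and 0.0256% of features passed, in that order. Unadjusted p-values under 0.05 were found for 1, 2 and 2 members, against 6.54%, 5.35% and 6.72% of features. In XXY males against XX males the gene was Psma4, at 0.14 (SE 0.07, limma adjusted p = 0.754), which was 0.07 without XX male 6, when the count was 0. In XXY males against XX females the genes were Psmg1 and Psma7. Psmg1 belongs to the chaperone dimer that starts the alpha ring, and its signals were 9.27, 9.56 and 9.72 in XXY males and 9.30, 9.37 and 9.47 in XX females. The difference was 0.15 (SE 0.06, limma adjusted p = 0.853). Psma7, an alpha subunit, differed by 0.13 (SE 0.06, limma adjusted p = 0.911), and its second probe gave 0.15. Between XX females and XX males the genes were Psmd10, described below with the X-linked members, and Psmd13, a subunit of the 19S lid, at -0.11 (SE 0.05, limma adjusted p = 0.723). Without XX male 6 they were Psmd13 and Psma7. A test over all 4 groups called 0 members, where 0.0854% of features were called, and gave an unadjusted p under 0.05 to 0 members, against 4.95% of features.

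The size of difference that these arrays leave room for was small for most members. The 95% interval of the difference lay within 1.5-fold in either direction for 36 of the 39 members in all 6 group comparisons. This limit was chosen after the intervals were seen. In single comparisons, between 36 and 38 members were inside it, while between 89.4% and 93.0% of all features were inside it. The exceptions were Psmd8, Psmd5 and Psmd6, each described below. The median difference of the members was between -0.03 and 0.02 over the 6 comparisons. The median residual standard deviation was 0.12 for the members and 0.23 for all features. Among features with a mean signal of at least 11 it was 0.10 for 24 members and 0.12 for 1990 features.

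**Figure D1:**
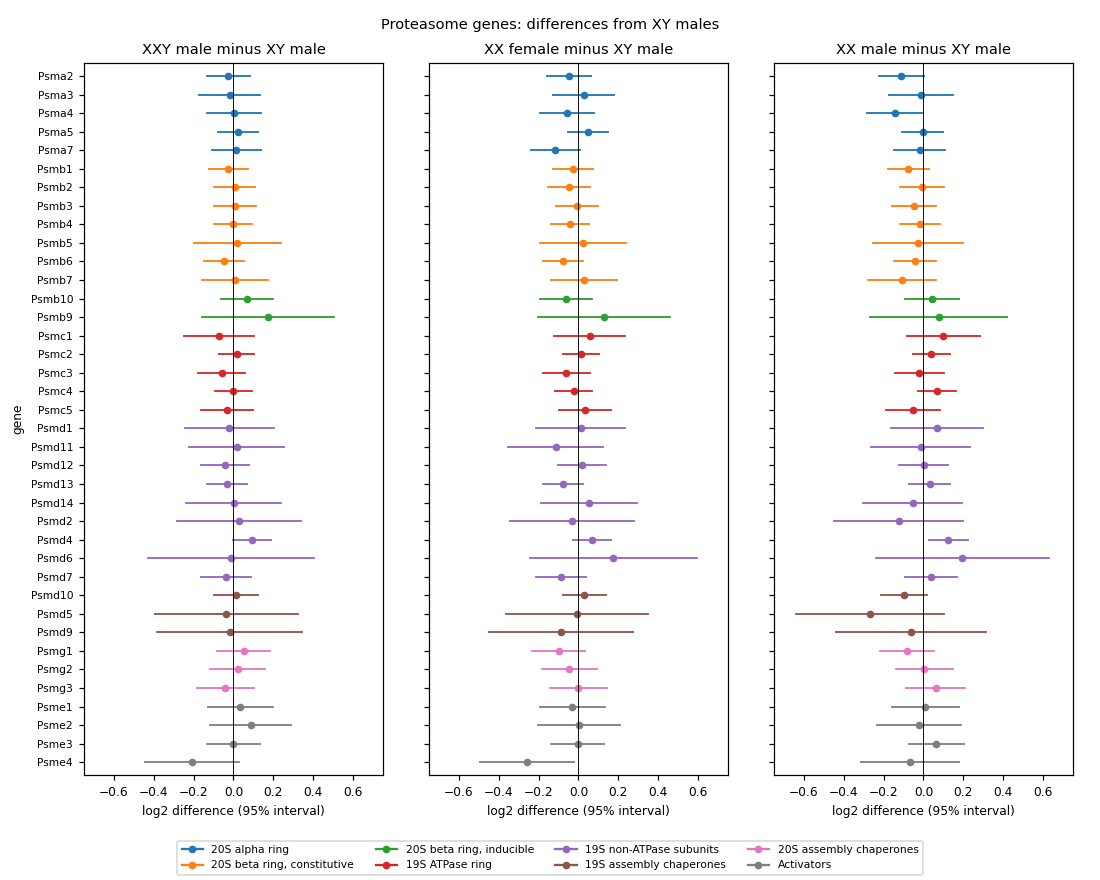
Fitted log2 differences (horizontal axis, points) with 95% intervals (lines) for 38 proteasome genes in XXY males, XX females and XX males, each minus XY males, coloured by role. Psmd8 is left out because its intervals run past the axis. Most points lie within 0.2 of 0, and Psmd5 and Psmd6 have wide intervals.

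The proteins that gate the barrel come first by role. The alpha ring was measured through Psma2, Psma3, Psma4, Psma5 and Psma7, whose mean log2 signals over 31 arrays were 13.96, 13.12, 12.86, 13.28 and 12.05. Their fitted differences in the 6 group comparisons lay between -0.14 and 0.14, both ends being Psma4. The beta ring was measured completely. Psmb1, Psmb2, Psmb3 and Psmb4, which carry no cutting site, had mean log2 signals of 12.59, 12.57, 12.82 and 14.04.

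The cutting sites of the constitutive core are in Psmb5, Psmb6 and Psmb7. Psmb5 has the chymotrypsin-like site, the main target of proteasome inhibitors. Its lowest, median and highest signals were 10.29, 10.52 and 11.14 in XXY males, 10.27, 10.43 and 11.19 in XX females, 10.16, 10.42 and 10.82 in XX males, and 10.08, 10.51 and 11.10 in XY males. The group medians lay closer together than the arrays within any group. The difference between XXY and XY males was 0.02 (95% interval -0.20 to 0.24).

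Psmb6, with the caspase-like site, had 12.63, 12.73 and 12.88 in XXY males, 12.50, 12.74 and 12.85 in XX females, 12.62, 12.74 and 12.86 in XX males, and 12.66, 12.77 and 12.96 in XY males. Psmb7, with the trypsin-like site, had 12.92, 13.06 and 13.24 in XXY males, 12.91, 13.04 and 13.30 in XX females, 12.44, 12.98 and 13.08 in XX males, and 12.83, 13.05 and 13.23 in XY males. All groups overlapped for both genes. XXY males minus XY males gave -0.05 (95% interval -0.15 to 0.05) for Psmb6 and 0.01 (95% interval -0.16 to 0.17) for Psmb7.

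Interferon replaces these sites with inducible subunits, of which Psmb9 and Psmb10 were measured. Psmb9, which takes the place of Psmb6, had 6.40, 6.86 and 7.30 in XXY males, 6.16, 6.76 and 7.43 in XX females, 6.20, 6.66 and 7.19 in XX males, and 6.10, 6.71 and 7.00 in XY males. Psmb10, which takes the place of Psmb7, had 11.50, 11.64 and 11.75 in XXY males, 11.27, 11.48 and 11.68 in XX females, 11.51, 11.60 and 11.75 in XX males, and 11.45, 11.51 and 11.83 in XY males. The groups overlapped for both. XXY males minus XY males gave 0.18 (SE 0.16, limma adjusted p = 1) for Psmb9 and 0.07 (SE 0.06, limma adjusted p = 1) for Psmb10. In XXY males minus XX females Psmb10 had the next smallest p after Psmg1 and Psma7, at 0.13 (SE 0.06, limma adjusted p = 0.919).

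**Figure D2:**
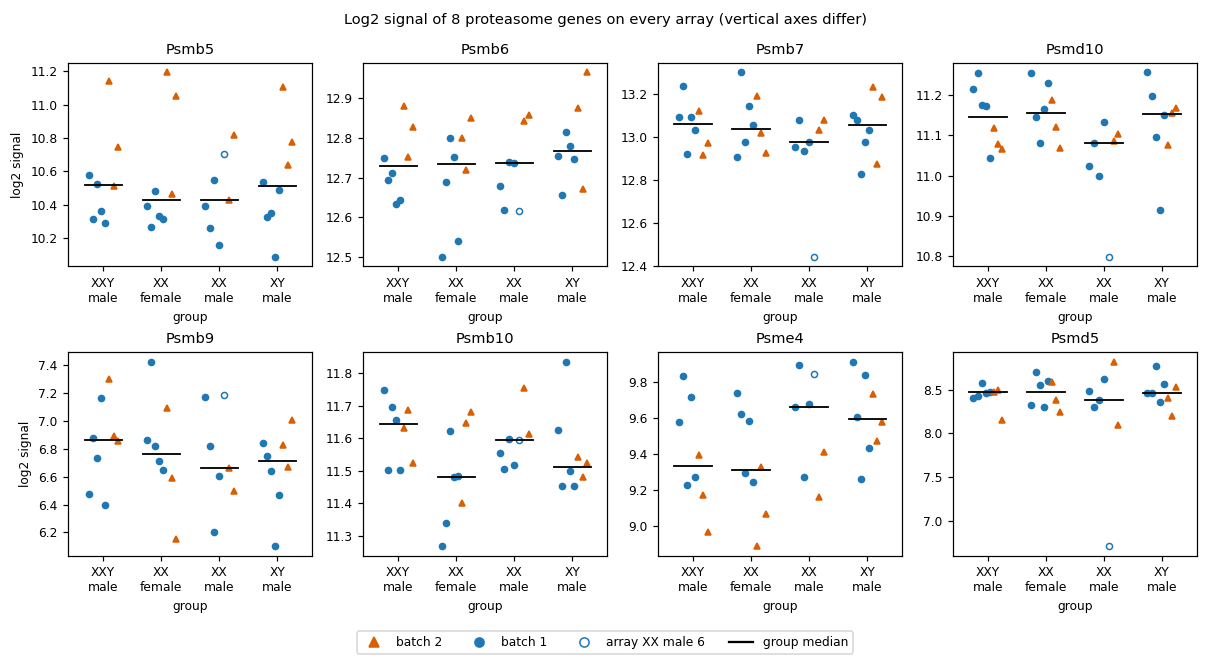
Log2 signal (vertical axes, which differ between panels) of 8 proteasome genes on every array, by group from XXY male to XY male. Triangles are batch 2, circles batch 1, the open circle is the array XX male 6 and black lines are group medians. The groups overlap in all panels, Psmb5 is higher in batch 2, and XX male 6 lies low for Psmb7, Psmd10 and Psmd5.

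The unfolding motor of the 19S cap was measured through Psmc1, Psmc2, Psmc3, Psmc4 and Psmc5, with mean log2 signals of 11.60, 13.62, 11.68, 12.48 and 12.69. Their group differences ran between -0.17 and 0.10, both ends being Psmc1, and 0 passed. Of the non-ATPase subunits, Psmd1 and Psmd2 are scaffolds that dock other proteins, Psmd4 binds ubiquitin, and Psmd14 is the enzyme that cuts ubiquitin off, working as a dimer with Psmd7. Psmd6, Psmd8, Psmd11, Psmd12 and Psmd13 build the lid. Mean log2 signals were 8.93 for Psmd1, 7.42 for Psmd2, 13.24 for Psmd4, 6.15 for Psmd6 and 12.13 for Psmd7. They were 9.46 for Psmd8, 8.56 for Psmd11, 11.61 for Psmd12, 12.41 for Psmd13 and 10.04 for Psmd14.

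Psmd6 was the dimmest probe in terms of detection, being detected on 24 of 31 arrays. Its signals were 5.48, 5.96 and 7.31 in XXY males, 5.41, 6.19 and 7.15 in XX females, 5.23, 6.31 and 7.53 in XX males, and 5.31, 5.98 and 7.04 in XY males. The ranges within groups far exceeded the distances between the medians. The representative probe of Psmd9 was detected on 30 arrays, and those of the other 37 members on all 31.

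The chaperones that assemble the 19S base are Psmd5, Psmd9 and Psmd10. Psmd10, known as gankyrin, was the member on the X chromosome, and no member is on the Y. Its lowest, median and highest signals were 11.04, 11.15 and 11.26 in XXY males, 11.07, 11.16 and 11.26 in XX females, 10.80, 11.08 and 11.13 in XX males, and 10.91, 11.15 and 11.26 in XY males. The arrays with 2 X chromosomes and those with 1 overlapped throughout. XXY males minus XY males gave 0.01 (95% interval -0.10 to 0.12), XX females minus XY males 0.03 and XX males minus XY males -0.10 (SE 0.06, limma adjusted p = 0.892). Without XX male 6, which holds the lowest value, the last was -0.06 (SE 0.05, limma adjusted p = 1). By contrast Eif2s3x, an X-linked gene that escapes X inactivation, was higher by 0.64 in XXY than in XY males (SE 0.07, limma adjusted p = 1.09e-06).

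Psmd10 had the smallest p among the members between XX females and XX males, at 0.13 (SE 0.06, limma adjusted p = 0.721). Without XX male 6 this was 0.09 (SE 0.05, limma adjusted p = 0.999). Its other probes gave 0.11 and 0.09. The probes did not track each other closely across arrays, with a Pearson r of 0.38 for one pairing with the representative probe and -0.04 for the other.

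Psmd5 had signals of 8.15, 8.47 and 8.58 in XXY males, 8.24, 8.47 and 8.70 in XX females, 6.70, 8.38 and 8.82 in XX males, and 8.20, 8.46 and 8.77 in XY males. The value of 6.70 was that of the array XX male 6, and all other arrays lay above 8. XX males minus XY males gave -0.27 (SE 0.18, limma adjusted p = 0.896), and -0.02 (SE 0.09) without that array. The wide intervals of Psmd5 thus rested on 1 array. Psmd9 had a mean log2 signal of 6.80.

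The chaperones that assemble the 20S core were measured through Psmg1, Psmg2 and Psmg3, with mean log2 signals of 9.44, 10.26 and 9.38 and group differences between -0.10 and 0.15. The activators bind the ends of the barrel in place of the 19S cap. Psme1 and Psme2 form the interferon-inducible PA28 ring, Psme3 forms its nuclear relative, and Psme4 acts alone. Their mean log2 signals were 11.61, 8.38, 11.13 and 9.47. Apart from Psme4, the largest group difference in size was 0.11, for Psme2 in XXY minus XX males.

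Psmd8, a lid subunit needed to complete the cap, had the widest spread of the members. Its residual standard deviation was 1.51, and the next widest was 0.43, for Psmd6. Its 31 signals fell into separate sets, with 12 arrays between 6.89 and 7.76, then a gap of 2.54, then 12 arrays between 10.30 and 10.68 and 7 between 11.05 and 11.62. With the 2 lowest and 2 highest arrays of each feature set aside, a gap this wide was found for 9 of 11713 features including Psmd8. The widest in another member was then 0.24, for Psmb5. The probe was detected on every array, also on the low ones. It was the only probe for Psmd8, and whether the sets reflect the level of the Psmd8 transcript was not tested, which holds for each Psmd8 value given here.

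The low set held 2 of 8 XXY males, 2 of 8 XX females, 4 of 7 XX males and 4 of 8 XY males. Every group had arrays on both sides of the gap. By batch it held 8 of 11 arrays in batch 2 and 4 of 20 in batch 1, XX male 6 being 1 of those 4. Group means were 9.98 ± 1.71 in XXY males, 9.83 ± 1.52 in XX females, 8.79 ± 1.57 in XX males and 9.17 ± 2.05 in XY males (SD, n = 8, 8, 7 and 8). XXY males minus XY males gave 0.81 with a 95% interval of -0.65 to 2.27 (limma adjusted p = 1), a wide range of possible differences. Within batches the difference was 2.13 in batch 2 and 0.02 in batch 1.

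In the authors' deposited processed values, Psmd8 is empty on 3 of the 12 low arrays, which are XXY male 5, XX male 3 and XY male 1. The other 9 low arrays had processed values between 8.95 and 9.42, and the arrays above the gap had values between 9.77 and 11.58. Over all arrays the step between the sets is thus narrower there, but this sets batches with different offsets side by side. These 9 low arrays are in batch 2 apart from XX male 6, while the value of 9.77 is that of XX male 5 in batch 1. Within batch 2 the processed values reached 9.42 in the low set and began at 10.63 above the gap.

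**Figure D3:**
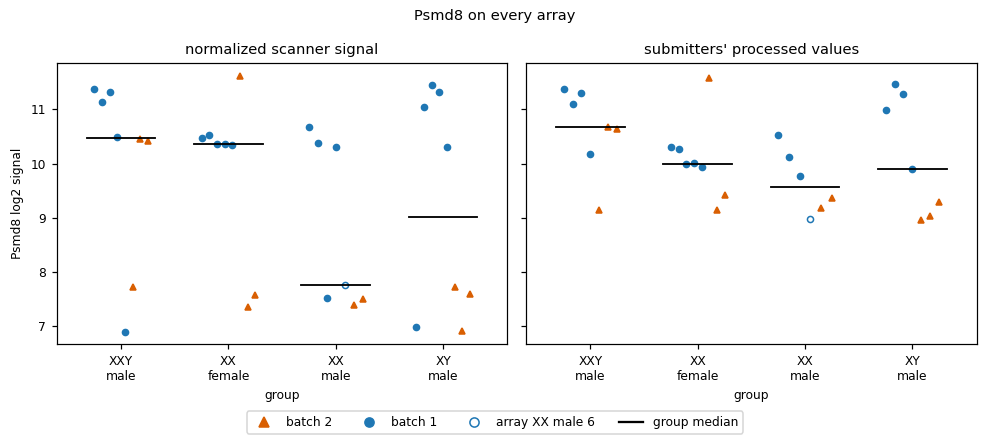
Psmd8 log2 signal (vertical axis) on every array by group, from the scanner signal normalized here (left) and as the submitters' processed values (right, 3 empty cells not drawn). Triangles are batch 2, circles batch 1, the open circle is XX male 6 and lines are group medians. At left 12 arrays lie below 7.8 and 19 above 10.3, with every group in both sets.

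The batches differed far more than the groups. In batch 2 minus batch 1, 18 of 39 members passed the adjusted threshold, where 44.8% of all features passed. Of these, 11 were higher, where 23.3% of features were, and 7 lower, where 21.5% were. The members' share was thus near that of all features. In the authors' deposited processed values, tested in the same way, 0 members passed. Those values differ from the scanner signals by offsets that themselves differ between batches, so this 0 is no independent check. Of all features, 3 passed between batches in the processed values, against 5247 in the scanner signals. Little difference between batches was thus left in them, and how the authors treated batch was not tested. Leaving out 1 array at a time, Psma2 missed the threshold in 26 of 31 fits and Psmd7 in 19 of 31, while the other 16 passed in every one.

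Among the genes higher in batch 2, Psmd6 had signals of 6.07, 6.85 and 7.53 in batch 2 and 5.23, 5.68 and 6.70 in batch 1. The fitted difference was 1.06 (SE 0.15, limma adjusted p = 2.37e-06). Psmd14, the deubiquitinase, had 10.10, 10.36 and 10.67 in batch 2 and 9.50, 9.81 and 10.37 in batch 1, a difference of 0.52 (SE 0.09, limma adjusted p = 2.15e-05). The batches overlapped for both genes. Psmd9 was higher by 0.48, Psmb5 by 0.42, Psmd1 by 0.27 and Psmc1 by 0.26. By the representative probes, smaller rises passed for Psmg2 at 0.15, Psmd12 at 0.14, Psmb6 at 0.13, Psmd7 at 0.12 and Psmb1 at 0.11.

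Among the genes lower in batch 2, Psmd8 stood at -1.74 (SE 0.54, limma adjusted p = 0.00914), with the shares of low arrays given above. Psmd2 had 6.92, 7.22 and 7.47 in batch 2 and 6.36, 7.61 and 8.05 in batch 1, a difference of -0.34 (SE 0.11, limma adjusted p = 0.0173). Psme4 had 8.89, 9.33 and 9.73 in batch 2 and 9.23, 9.61 and 9.91 in batch 1, a difference of -0.28. Psma4 at -0.20, Psmd13 at -0.17, Psmc2 at -0.13 and Psma2 at -0.10 also passed.

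By role, 3 of 7 constitutive beta subunits passed as higher and 0 as lower, while 2 of 5 alpha subunits passed as lower and 0 as higher. Of the 10 non-ATPase subunits 5 were higher and 3 lower. Over all features 23.3% were higher and 21.5% lower, and with so few genes per role these counts are a description. Probes of 1 gene did not always move alike: of 13 members with several probes, 9 had all of them on the same side of 0. Psmd7 was 0.12 by its representative probe and -0.14 by the other. Psmb7 was 0.03 by its representative probe and 0.29 and 0.38 by its others. Psmd12 was 0.14 by its representative probe and 1.35 by the dimmer one (limma adjusted p = 1.5e-08), and Psmd11 was 0.20 and 0.75. With XX male 6 counted in batch 2 or left out, 19 members passed, which included all 18.

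**Figure D4:**
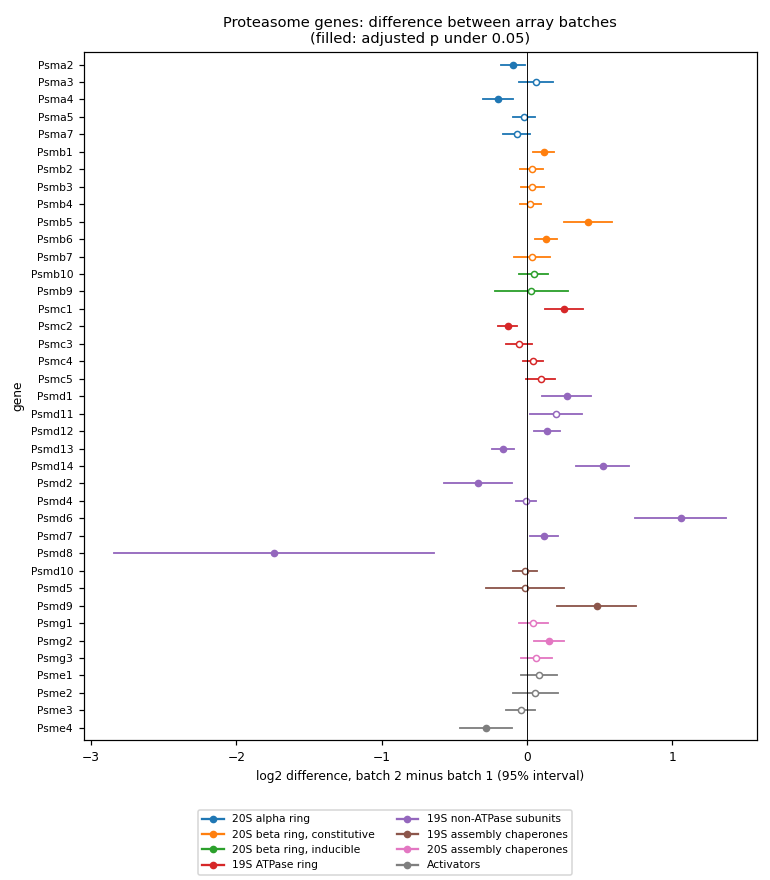
Log2 difference, batch 2 minus batch 1 (horizontal axis), with 95% intervals for the 39 proteasome genes, coloured by role. Filled points have an adjusted p under 0.05 and number 18. Psmd6 and Psmd14 lie farthest to the right and Psmd8 farthest to the left.

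Whether the members varied together from array to array was described by the Pearson correlation of their residuals after group and batch. These correlations share arrays and normalization and carry no test. Over 741 pairs of members the median r was 0.09 and 61.8% were above 0, whereas the median over pairs of all 11713 features was 0.00. Within batches the members' median was 0.07 in batch 2 and 0.09 in batch 1. Without XX male 6 it was 0.09.

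The median was 0.43 among the 5 alpha subunits, 0.18 among the 7 constitutive beta subunits, 0.08 in the ATPase ring and 0.07 among the non-ATPase subunits. The alpha value rested on XX male 6, without which it was 0.09, while these other 3 medians were 0.20, 0.09 and 0.08. Other roles lay on both sides of 0. The median was 0.28 among the 20S assembly chaperones, -0.13 among the 19S assembly chaperones and -0.20 among the 4 activators. The 2 inducible beta subunits had an r of -0.27. Without XX male 6 these values were 0.34, 0.07, -0.18 and -0.29. Psma2 with Psma4 had an r of 0.68, which was 0.17 without that array. Psma2 with Psmd5, the highest pair at 0.79, was 0.36 without it.

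Further pairs moved less without that array. Psmc4, an ATPase, and Psmd12, a lid subunit, had an r of 0.79 (Spearman rho 0.78), with 0.83 in batch 2, 0.81 in batch 1 and 0.81 without XX male 6. Psmb5 and Psmc1 had 0.74 (rho 0.78), with 0.73 in batch 2, 0.87 in batch 1 and 0.69 without XX male 6. Psme1 and Psme2, whose proteins form 1 ring, had -0.15. Against the mean of the other members, Psme2 had the highest r, at 0.73, and Psme4 the lowest, at -0.27.

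Psme2 had lowest, median and highest signals of 8.03, 8.50 and 8.68 in XXY males, 8.21, 8.36 and 8.64 in XX females, 8.05, 8.35 and 8.62 in XX males, and 8.15, 8.28 and 8.79 in XY males. The groups overlapped. Probes of the same gene had a median r of 0.02 with each other over 17 pairs. Of these pairs 8 were below 0 and 7 had an r of at least 0.3, the highest being 0.63, for Psma7.

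**Figure D5:**
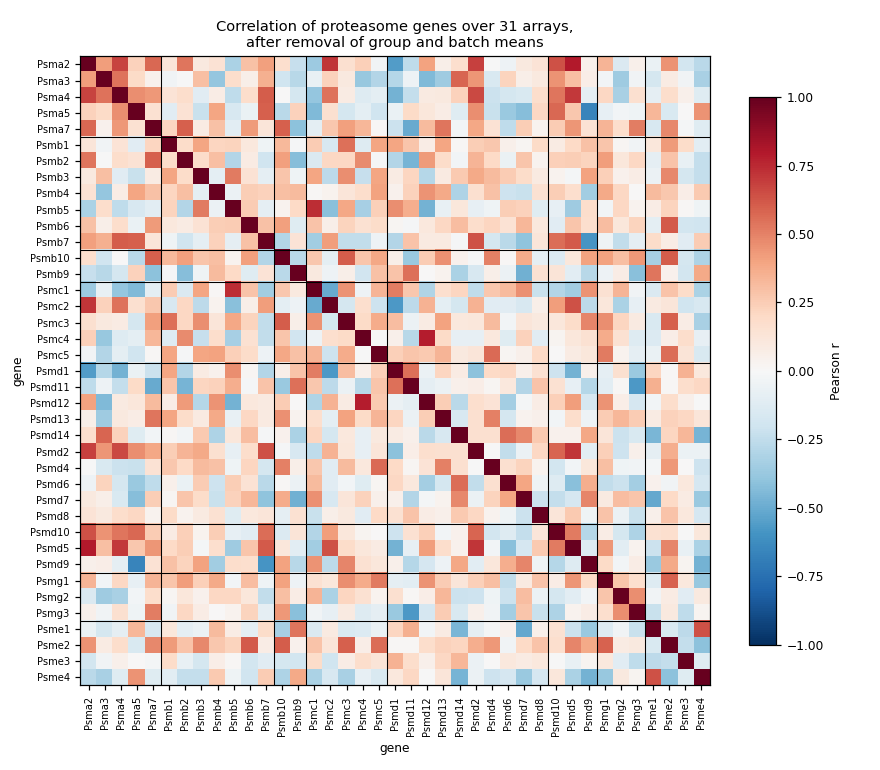
Pearson r between the 39 proteasome genes over 31 arrays after removal of group and batch means, ordered by role, with black lines between roles. Colour gives r between -1 and 1. The block of alpha subunits at upper left has a median of 0.43, which is 0.09 without the array XX male 6.

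Genes around the proteasome were described in the same way. Of 13 listed partners outside the naming rule 4 were measured, among them Pomp, the chaperone of beta ring assembly, and the deubiquitinases Usp14 and Uchl5. Measured counts were 6 of 12 for ubiquitin and its supply, 8 of 13 for shuttle proteins and the unfoldase Vcp, 7 of 11 for regulators of proteasome genes, and 8 of 14 for interferon response and antigen presentation. In all 6 group comparisons 0 genes of these lists passed the adjusted threshold.

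Between XXY and XY males, Nfe2l1 differed by 0.03 (SE 0.07) and Pomp by -0.01 (SE 0.05), both with a limma adjusted p of 1. Sqstm1, a receptor that carries ubiquitin-tagged cargo to autophagy, differed by 0.15 between XX and XY males (SE 0.05, limma adjusted p = 0.874). Nfe2l2, the oxidative stress factor, differed by 0.43 between XX females and XX males (SE 0.15, limma adjusted p = 0.666). None of these passed.

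The interferon list had a median difference of 0.19 between XXY and XY males, with 8 of 8 genes above 0, beside 51.3% of all features. Its smallest p was that of B2m, the light chain of class I molecules, at 0.23 (SE 0.10, limma adjusted p = 1). By their representative probes the inducible subunits Psmb9 and Psmb10, given above at 0.18 and 0.07, lay on the same side of 0, as did Psme1 at 0.03 and Psme2 at 0.09. The second probe of Psme1 gave -0.06 and that of Psmb10 gave 0.01. None of these genes passed, so the shared sign is a description of these arrays.

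Markers of some other cell types and regions also lay mostly on one side of 0 in XXY minus XY males, with 0 genes past the adjusted threshold. Meningeal markers had a median difference of 0.66 with 6 of 6 above 0, blood markers 0.40 with 3 of 3, microglia markers 0.12 with 7 of 9, and thalamic neuron markers -0.47 with 1 of 6. Striatal markers had 0 of 6 above 0. Nearer an even split were 4 of 8 neuron, 5 of 9 astrocyte and 4 of 9 oligodendrocyte markers above 0. Endothelial and pericyte markers had 4 of 7 above 0, and bed nucleus and preoptic markers 8 of 12. The mean of the 8 interferon genes per array, batch-adjusted and relative to all arrays, ran between -0.19 and 0.57 in XXY males and between -0.37 and 0.29 in XY males. The same measure ran between -0.87 and 1.47 in XXY males and -1.55 and 1.32 in XY males for meningeal markers. For microglia markers it ran between -0.14 and 0.29 in XXY males and -0.24 and 0.13 in XY males. For blood markers it ran between -0.32 and 0.93 in XXY males and -0.95 and 0.63 in XY males, and for thalamic markers between -1.13 and 0.48 in XXY males and -1.08 and 1.15 in XY males. The groups overlapped for all of these lists, and their part in the interferon values was not tested. In batch 2 minus batch 1, where 44.8% of features passed, the interferon list had 1 gene higher and 1 lower of 8, with a median of 0.02.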

How the data were processed

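The members and the gene lists were chosen with earlier results of these data known. Per the file headers, the deposited scanner table gives a mean bead intensity and a detection p-value for every probe and array. No header records a normalization of the intensities. Bead standard errors, a signal in the deposited table, and bead numbers entered no test. The authors also deposited log2 values for 12980 probes, recognised as log2 by setting them against the scanner columns. The submitters' processing notes name limma.

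Background correction from detection p-values, quantile normalization and log2 used neqc (offset 16, limma 3.58.1, R 4.3.3). A probe was kept if detected at p under 0.05 on 7 arrays or more, and 14989 were. A gene with several probes took the brightest by mean of the deposited processed values. Names came from the platform annotation and RefSeq (GRCm38.p6), which left 8974 named genes and 2739 unnamed probes. A limma fit over 31 arrays had terms for group and batch, with Benjamini-Hochberg adjustment at 0.05. The script was tested on simulated data, and the number of arrays limits the precision. Group values are given for members past the threshold or with the 3 smallest p-values of a comparison, for catalytic, inducible and X-linked subunits, and for extremes of correlation. Other genes are list examples or were named after their values were seen. Alternatives covered background, normalization, processed values, probe filters and choice, batch handling, array weights and leaving out arrays.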

Additional observations from a re-analysis of the deposited data

Results flagged for a closer look

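Within groups, 18 of 156 sets of batch-adjusted signals of 1 member had an array far from the others by Dixon's test at 95%, where chance alone marks about 1 in 20, or 7.8. The array XX male 6 accounted for 8 of them. After batch adjustment it had 13.56 for Psma2 (other XX males 13.89 to 14.09), 12.31 for Psma4 (12.72 to 12.90), 12.45 for Psmb7 (12.94 to 13.09) and 10.79 for Psmd10 (10.99 to 11.13). It had 6.242 for Psmd2 (7.309 to 7.710) and 6.699 for Psmd5 (8.107 to 8.831). It was above the other XX males at 9.62 for Psmd1 (8.726 to 8.974) and 8.881 for Psmd11 (8.440 to 8.613). With that array counted in batch 2, 13 sets were marked, 3 of them through it.

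The array XY male 3 was high for Psmb10 at 11.85, Psme2 at 8.807 and Psmg1 at 9.662. Psmc3 was far from its group in 3 groups, at 11.89 on XXY male 3, 11.47 on XX female 2 and 11.86 on XX male 1. Single values were 8.158 for Psmd5 on XXY male 8, 12.24 for Psma7 on XX female 8, 12.74 for Psmd8 on XX female 6 and 5.839 for Psmd9 on XX male 2. Before batch adjustment the Psmd8 signal of XX female 6 was 11.62. It was then 1 of 6 XX females above the gap, which ran between 10.35 and 11.62.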

How the results depend on the processing

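Counts of members called in the 6 group comparisons and over any of 4 groups stayed at 0 under all alternatives run. In these fits between 0 and 12 of all features were called per comparison. With so few calls among all features, counts of 0 among 39 members say little about the members. Of 2666 differences of named members in group comparisons under alternatives, 0 passed and 81 changed sign, as did 11 of 258 medians of the members, none of them called. With the submitters' processed values, batch 2 minus batch 1 called 0 members and 3 features, against 18 and 5247, and reversed Psma2 to 0.0095, Psmd1 to -0.028 and Psmd2 to 0.012. XXY males minus XX males then called 1 feature. The offsets of the processed values from the scanner signals differ between batches, so they are no independent check of the batch comparison. Without a filter on dim probes, the batch comparison called 8331 features. With probes detected on all 31 arrays only, calls were 3 for XX females minus XY males, 2 for XX males minus XY males, 0 for XXY males minus XX males, 0 for XXY males minus XX females, 1 for XX females minus XX males and 3 over any group. The next probe of each gene gave 3 calls for XXY minus XY males and reversed Psmd7 between batches to -0.14. Leaving out each array in turn gave between 16 and 19 members called between batches. The correlation median was 0.09 without Psmd8, an alternative chosen after seeing the data.

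Same-numbered arrays of different groups had residual correlations of -0.24 to 0.31 over 42 pairs, 14 of them over 0.1. Their median was 0.05, against -0.08 over 153 pairs of other numbers in the same batch. Of 31 arrays, 16 correlated best with their own number, a count for which no chance level was computed. The main fit has no term for array number. The replicate block called 1 feature, against 3, in XX females minus XX males and 0 members in any comparison.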

Other observations

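After residuals of all named genes were ranked by the size of their correlation with Psmd8, of either sign, Zfp420 came first, at 0.89. It is a zinc finger gene on chromosome 7, like Psmd8. Of the 12 arrays low for Psmd8, 11 were among the 12 lowest for Zfp420. 6 measured named genes lie between the 2 genes. Of the 20 named genes ranked first by size, which hold both signs, 6 are on chromosome 7, where 7.54% of named genes lie. Besides Zfp420 these are Vps33b at 0.63, Pih1d1 and Cyth2 at 0.54 each, and Zfp27 and Zfp607b at -0.61 each. The last 2 thus ran opposite to Psmd8. These genes were chosen after their values were seen, and the pattern carries no test. Whether the Psmd8 sets reflect transcript level was not tested.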
